A study of Homo sapiens with 16 samples.

Results

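TRIM5, TRIM14, TRIM21, TRIM22, TRIM34, TRIM38 and TRIM69 are 7 human genes of the tripartite motif (TRIM) family whose transcripts respond to interferon. They were taken from the deposited table by gene symbol, and the 7 symbols each matched 1 of its 60612 genes. All 7 passed the filter on low counts that left 17950 genes for testing, and no library held fewer than 82 counts of any of them. They were selected on measured values of these data, taken to be their higher levels in control cells after the MPS1 inhibitor. Comparisons that use the control line are therefore described without a test, and tests are given for the 12 comparisons among the other 3 lines. If values of those 3 lines also entered the choice, which is not known, these tests are not independent of it.

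The cells are NCI-H1944, a human lung adenocarcinoma line, and RNA was measured by sequencing of poly(A)-enriched libraries. Line SCR is labelled wild type, STINGsg carries the label STING knockout, MAVSsg the label MAVS knockout, and DKO the label STING/MAVS knockout; they are called SCR, STING, MAVS and DKO below. Each line was exposed to the MPS1 inhibitor BAY-1217389 (MPS1i, 100 nM) or to its solvent DMSO for 48 h and harvested after 24 h without drug, with 2 libraries in each of the 8 groups and 16 in all. MPS1, encoded by TTK, is a kinase of the spindle checkpoint, and its inhibition makes chromosomes segregate wrongly. The series asks which expression changes after the pulse need STING, MAVS or both. Whether a line is a single clone, and whether replicates are separate cultures, is not given in the sources used here, and p-values therefore cover only how these libraries spread, which may be technical.

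TRIM proteins usually carry a RING domain that attaches ubiquitin, a B-box, a coiled coil and a variable end that picks the target, often a SPRY domain. Interferons, released when STING reports cytosolic DNA or when MAVS reports cytosolic RNA, act through a complex of transcription factors that includes IRF9. That complex binds interferon-stimulated response elements (ISRE) in promoters, and many TRIM genes are among its targets. TRIM5 and TRIM34 bind retroviral capsids, and TRIM22 is an antiviral factor that restrains transcription of retroviruses. TRIM14 lacks the RING domain and works as an adaptor at MAVS and at cGAS, TRIM21 is a cytosolic antibody receptor, TRIM38 is a ligase that restrains inflammatory signalling, and TRIM69 is a ligase that associates with microtubules and restricts some RNA viruses.

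Of the 7 genes, 4 lie on the short arm of chromosome 11. Per the deposited table (GRCh38), TRIM21 (ENSG00000132109) spans 4384897 to 4393702 on the minus strand, TRIM34 (ENSG00000258659) 5619764 to 5644398 on the plus strand, TRIM5 (ENSG00000132256) 5663195 to 5938619 on the minus strand and TRIM22 (ENSG00000132274) 5689697 to 5737089 on the plus strand. TRIM38 (ENSG00000112343) spans 25962802 to 25991231 of chromosome 6 on the plus strand, TRIM14 (ENSG00000106785) 98069275 to 98119222 of chromosome 9 on the minus strand and TRIM69 (ENSG00000185880) 44728988 to 44767829 of chromosome 15 on the plus strand. The whole span of TRIM22 lies inside that of TRIM5 on the other strand, and TRIM34 lies inside the readthrough gene TRIM6-TRIM34 on the same strand. The strand setting of the counting is not given in the sources used here, so reads from places where TRIM5 and TRIM22 overlap cannot be told apart with certainty. TRIM6-TRIM34 held at most 15 counts in a library and 27 over all 16, and reads it shares with TRIM34 may be missing from both. CTD-2643I7.5 overlaps TRIM5 on the same strand and TRIM34 on the other strand. It held at most 20 counts in a library and 129 over all 16. TRIM14 overlaps NANS, an enzyme gene on the other strand that held 390 to 1048 counts per library.

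The ISRE core was searched because it is the element these genes are known for. A further reason was that all 7 transcripts were higher after MPS1i in SCR, STING and MAVS cells. RefSeq windows (GRCh38.p14) of 250 bases before to 50 after the start site were on hand for 6 of the 7 genes, with 2 windows for TRIM34 and none for TRIM22. The core searched was GAAA, any 2 bases and GAAA again, on both strands. It stood in 5 of these 6 genes, against 4 of 31 other tested TRIM genes (12.9%), and in 5 of their 7 windows, against 3.57% of all 35116 windows. The 7 genes were chosen as interferon-responsive, so nothing more is read from these counts. Each match is printed within 30 bases, written on the strand that reads as the core, with the matched bases in capitals.

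TRIM5: ctcagggcagGAAAGTGAAAgataaactat

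TRIM14: gctcccaaggGAAACCGAAAcctcggccgt

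TRIM21: ctgagcgGAAACTGAAAGTGAAAtagggag

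TRIM34: cctgagaaatGAAAGTGAAAtttttggggc

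TRIM69: ttgcttaagaGAAAGAGAAAccctcattag

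These stretches lie on chromosome 11 from 5685082 to 5685111 on the plus strand (TRIM5), chromosome 9 from 98119229 to 98119258 on the plus strand (TRIM14), chromosome 11 from 4393663 to 4393692 on the minus strand (TRIM21), chromosome 11 from 5624901 to 5624930 on the minus strand (TRIM34) and chromosome 15 from 44736456 to 44736485 on the minus strand (TRIM69). TRIM5 and TRIM34 had the same 10 letters, GAAAGTGAAA, in that core. In TRIM5 and TRIM14 the match lay at nearly the same place, from -27 to -18 and from -26 to -17 relative to the RefSeq start site. It lay from -90 to -81 in TRIM34 and from -62 to -53 in TRIM69. TRIM21 held 2 overlapping matches that run together over 16 bases from 18 to 33 after the start. The TRIM38 window and the other TRIM34 window held no match. None of the windows held the element TTCNNNGAA (GAS), which stood in 7.66% of all windows. The RefSeq starts of TRIM5 (5685074), TRIM34 (5625001) and TRIM69 (44736528) lie inside the deposited gene spans, so other starts of these genes were not searched. A match is a description of letters and not a measured binding site.

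Total counts ran from 19893784 to 49769938 per library. The epithelial genes KRT8 and KRT18 stood at 810 CPM (counts scaled to library size) or more in every library, KRT7 at 103 or more and CDH1 at 36.7 or more. Of the same list of 10 epithelial markers, EPCAM stood at 2.18 to 5.69 CPM and KRT19 did not pass 0.113 CPM. The lung lineage markers NKX2-1, NAPSA, SFTPB and SFTPC did not pass 0.378 CPM. Of 8 immune cell markers NKG7 had 0 counts and PTPRC did not pass 0.131 CPM, but the sum of the list was higher after MPS1i, going from 70.7 and 80.6 CPM in SCR DMSO to 531 and 557 CPM in SCR MPS1i. The same sum ran from 85.4 to 89.7 CPM under DMSO and 193 to 206 CPM after MPS1i in STING, 95.2 to 108 and 290.5 to 294 CPM in MAVS, and 104 to 117 and 127 to 136 CPM in DKO cells. That sum is carried by CD68, a lysosomal gene, and each of the other markers stayed at or below 1.1 CPM. STING1 transcript levels stood below the control in both lines with a STING knockout label, at 3.74 ± 0.0573 CPM (SD, n = 2) in STING DMSO and 4.86 ± 0.0461 in DKO DMSO against 8.27 ± 0.0317 in SCR DMSO. MAVS transcript levels did not (195 ± 0.89 and 215 ± 9.83 CPM against 186 ± 4.28 in SCR, all under DMSO, for the lines with a MAVS knockout label), and a transcript level does not test whether the protein is lost. Levels are CPM scaled by the TMM method, each ± is an SD over 2 libraries for a level and a standard error for a log2 fold change, and adjusted p-values come from the quasi-likelihood test of edgeR, with Benjamini-Hochberg adjustment over all tested genes.

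In SCR cells, the 7 transcripts stood between 3.03-fold (TRIM69) and 36.8-fold (TRIM22) higher after MPS1i than under DMSO. All 7 were at least 2-fold higher, which 10.1% of tested genes were. These are the values taken to have chosen the genes, so nothing is read from that count. Both MPS1i libraries lay above both DMSO libraries for each gene, as for 39.3% of tested genes. TRIM22 had 11.3 and 9.86 CPM in the SCR DMSO libraries and 385 and 400 CPM in the SCR MPS1i libraries, a log2 fold change of 5.20 ± 0.07. In RNA from whole cultures, more transcript per cell and more cells with the transcript cannot be told apart. TRIM21 followed with 3.27 ± 0.08 (8.99 ± 0.579 to 86.4 ± 1.31 CPM), TRIM5 with 3.09 ± 0.06 (31.6 ± 0.188 to 269.7 ± 1.59 CPM) and TRIM38 with 2.76 ± 0.06 (43.3 ± 1.66 to 293 ± 3.21 CPM). The lowest folds were those of TRIM34 at 2.22 ± 0.09 (7.91 ± 0.227 to 36.8 ± 2.5 CPM), TRIM14 at 1.70 ± 0.05 (88.6 ± 0.135 to 287 ± 0.0334 CPM) and TRIM69 at 1.60 ± 0.07 (25.55 ± 0.663 to 77.3 ± 0.254 CPM). The median over the 7 was 2.76, and over all tested genes 0.03.

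**Figure D1:**
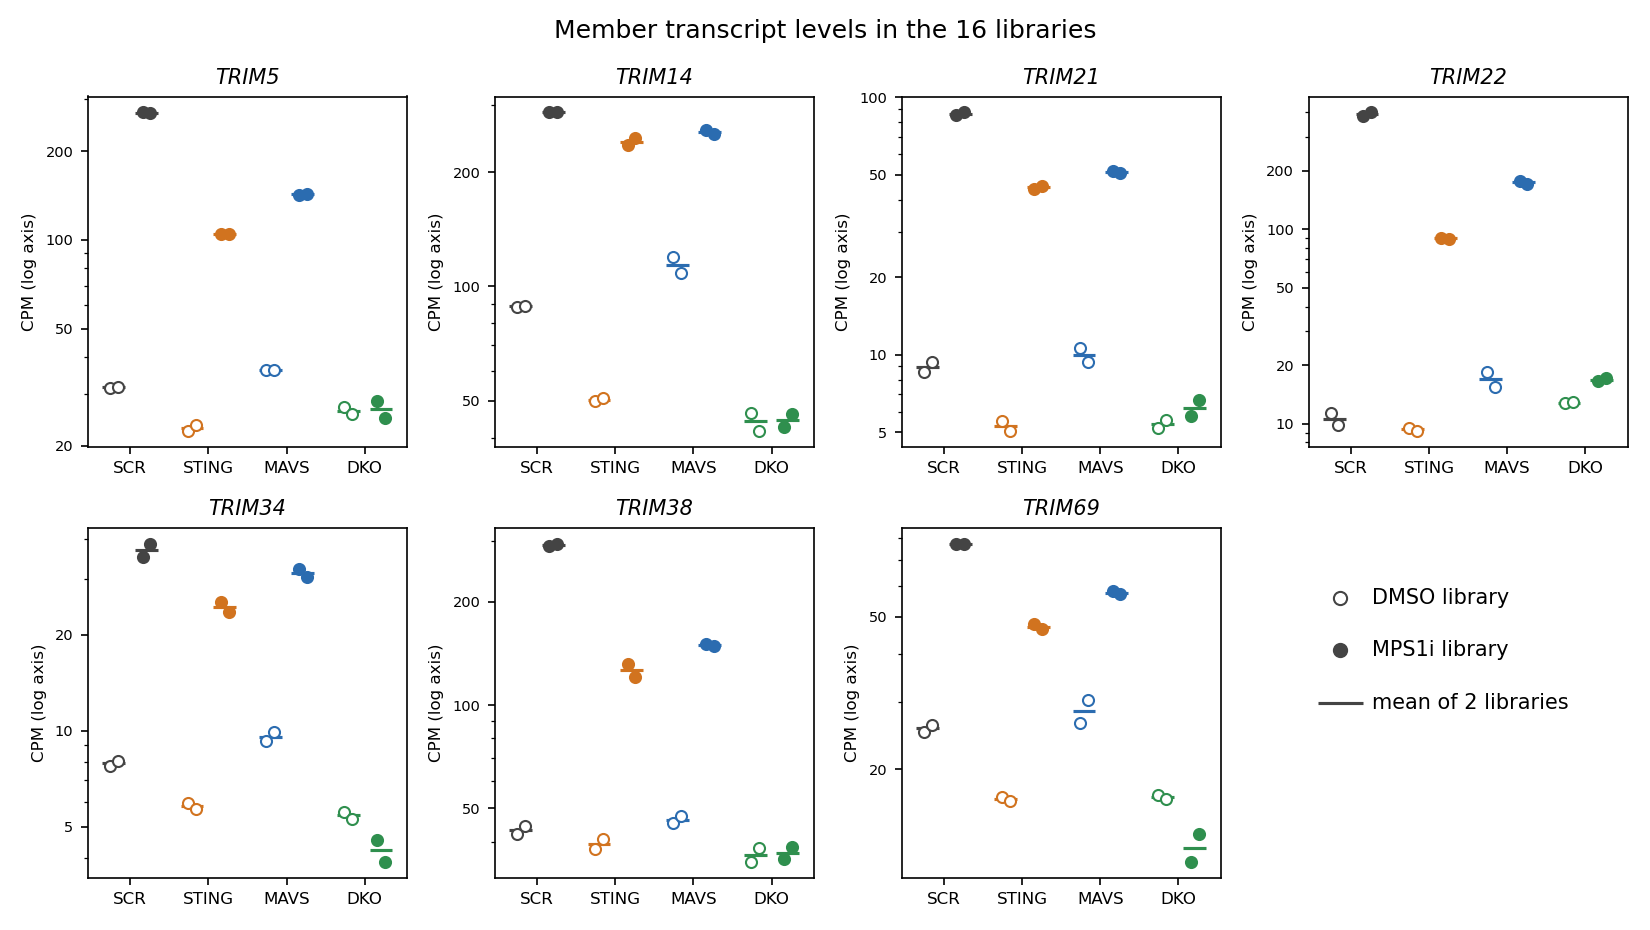
Level of each of the 7 genes in the 16 libraries, in CPM on a log axis, by line; open circles are DMSO libraries, filled circles MPS1i libraries, and lines the mean of 2 libraries. The MPS1i libraries stand above the DMSO libraries of the same line in SCR, STING and MAVS for every gene, and in DKO the points of both treatments lie close together, with TRIM22 going from 12.8 to 16.8 CPM and TRIM69 from 16.96 to 12.5 CPM.

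The order of the genes by level per exon length changed with the pulse in SCR cells. Per kilobase of exon (GENCODE 29 union exons, an annotation that may differ from the one counted), TRIM14 had the highest level under DMSO at 16.2 CPM per kilobase and TRIM22 the lowest at 1.76. TRIM5 was next to TRIM14 at 6.57, TRIM21 and TRIM38 overlapped in their libraries at 4.66 and 4.605, and TRIM34 and TRIM69 stood at 2.94 and 2.76. After MPS1i TRIM22 had the highest level at 65.2 CPM per kilobase, followed by TRIM5 at 56.1, TRIM14 at 52.5, TRIM21 at 44.8, TRIM38 at 31.2, TRIM34 at 13.7 and TRIM69 at 8.34. TRIM22 thus went from the lowest place to the highest.

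All 7 genes rose in STING cells, by 1.49 to 3.26 on the log2 scale with a median of 2.19, where 15.5% of tested genes rose and their median was 0. TRIM22 went from 9.53 and 9.20 CPM to 90.3 and 89.4 CPM (3.26 ± 0.08, adjusted p = 2.6e-21), or 9.58-fold. TRIM21 rose nearly as much, from 5.54 and 5.06 to 44.2 and 45.3 CPM (3.07 ± 0.09, adjusted p = 4.6e-19). TRIM14 went from 49.9 and 50.7 to 235 and 246 CPM (2.26 ± 0.06, adjusted p = 1.4e-20). For each gene both MPS1i libraries lay above both DMSO libraries, which held for 32.8% of tested genes. TRIM5 rose by 2.19 ± 0.06, TRIM34 by 2.07 ± 0.10, TRIM38 by 1.68 ± 0.06 and TRIM69 by 1.49 ± 0.08, with adjusted p of 7.6e-14 or lower. TRIM38 and TRIM5, the ligase that restrains inflammatory signalling and the capsid receptor, reached 126 ± 7.66 and 105 ± 0.0875 CPM.

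All 7 also rose in MAVS cells, by 1.03 to 3.35 with a median of 1.71, where 17.1% of tested genes rose and their median was 0.02. TRIM22 went from 18.4 and 15.5 CPM to 178 and 171 CPM, 10.2-fold. TRIM14 went from 119 and 109 CPM to 257 and 252 CPM (1.16 ± 0.05, adjusted p = 5.1e-15), and TRIM69 from 26.4 and 30.3 to 58.1 and 57.2 CPM (1.03 ± 0.07, adjusted p = 1.6e-11). These were the smallest rises of the 7, and their MPS1i libraries still lay clear of the DMSO libraries. TRIM21 rose by 2.36 ± 0.08 to 51.3 ± 0.647 CPM, TRIM5 by 1.98 ± 0.06 to 143 ± 0.457 CPM, TRIM34 by 1.71 ± 0.09 to 31.2 ± 1.28 CPM and TRIM38 by 1.70 ± 0.06 to 150.1 ± 1.54 CPM, with adjusted p of 6.3e-14 or lower. Both MPS1i libraries lay above both DMSO libraries for each of the 7, as for 35.1% of tested genes.

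In DKO cells 1 of the 7 genes rose (6.53% of tested genes did) and 1 fell (8.22% did). The other 5 missed the threshold, and the median of the 7 was 0.01, against 0 over all tested genes. TRIM22 rose from 12.7 and 12.9 CPM to 16.5 and 17.1 CPM, by 0.39 ± 0.08 (adjusted p = 0.0013), or 1.31-fold. TRIM69 went the other way, from 17.2 and 16.7 CPM to 11.5 and 13.5 CPM, a fall by 0.45 ± 0.09 on the log2 scale (adjusted p = 0.00049). The TRIM69 call was lost without DKO MPS1i replicate 1, at -0.33 and adjusted p = 0.053, while the TRIM22 call held without any of the 4 libraries. TRIM34 had 5.58 and 5.27 CPM under DMSO and 4.56 and 3.88 CPM after MPS1i (-0.34 ± 0.12, adjusted p = 0.064). With the counts of TRIM6-TRIM34 added, at most 15 in a library, TRIM34 passed the same test (-0.39, adjusted p = 0.029). TRIM5 (0.03 ± 0.06), TRIM14 (0.01 ± 0.06), TRIM38 (0.01 ± 0.06) and TRIM21 (0.18 ± 0.11) did not pass, with adjusted p from 0.32 to 0.95. The libraries of TRIM5, TRIM14 and TRIM38 overlapped between the treatments.

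**Figure D2:**
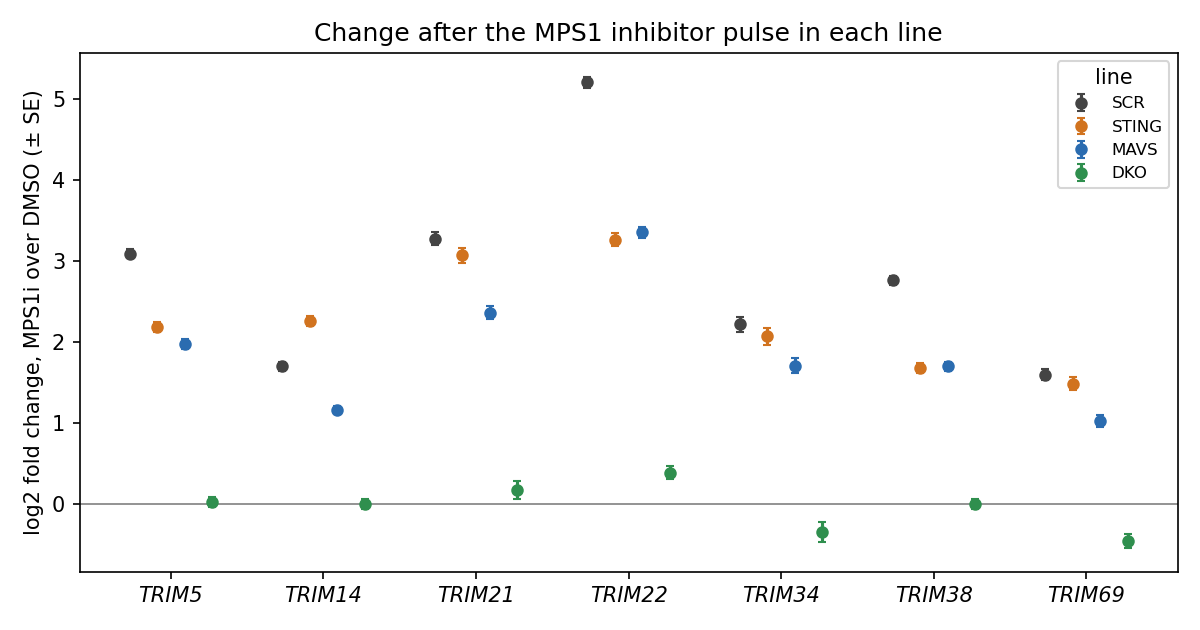
Log2 fold change of each gene after MPS1i over DMSO in each of the 4 lines; points are estimates from the fit and bars are ± 1 standard error. The STING points of TRIM14 lie above those of the other lines at 2.26, the TRIM22 points of STING and MAVS lie side by side at 3.26 and 3.35, and the DKO points lie between -0.45 and 0.39.

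The difference between lines was tested directly. The change in DKO cells was smaller than that in STING cells for 7 of 7 genes, where 3.17% of tested genes differed in that direction, with differences from -2.89 (TRIM21) to -1.67 (TRIM38) on the log2 scale. It was smaller than that in MAVS cells for 7 of 7 as well, against 6.41%, with differences from -2.96 (TRIM22) to -1.15 (TRIM14). Adjusted p was 2.4e-11 or lower in the former comparison and 3.3e-10 or lower in the latter, and both use the same DKO libraries. After MPS1i, DKO cells stood lower than STING cells for 7 of 7 genes (7.69% of tested genes did), from 3.41-fold for TRIM38 to 7.29-fold for TRIM21. Against MAVS cells after MPS1i they stood lower for 7 of 7 (14.2% did), from 4.06-fold for TRIM38 to 10.4-fold for TRIM22.

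STING and MAVS cells differed in the log2 change of 3 of the 7 genes. The log2 rise was larger in STING cells for TRIM14 by 1.10 ± 0.08 (adjusted p = 5.7e-10), for TRIM21 by 0.71 ± 0.13 (adjusted p = 0.0013) and for TRIM69 by 0.46 ± 0.11 (adjusted p = 0.012), where 1.96% of tested genes differed in that direction. These rises started from lower DMSO levels in STING cells. TRIM14 went from 50.3 to 240 CPM in STING and from 114 to 255 CPM in MAVS cells. TRIM21 went from 5.30 to 44.7 and from 9.95 to 51.3 CPM, and TRIM69 from 16.7 to 47.1 and from 28.4 to 57.65 CPM, in the same order. The TRIM69 difference lost its call without STING DMSO replicate 2 (0.44, adjusted p = 0.07) and without MAVS DMSO replicate 2 (0.37, adjusted p = 0.094). For TRIM22 the difference was -0.09 ± 0.11 (adjusted p = 0.75), for TRIM38 -0.01 ± 0.09 (adjusted p = 0.96), for TRIM5 0.21 ± 0.08 (adjusted p = 0.18) and for TRIM34 0.36 ± 0.14 (adjusted p = 0.17).

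Under DMSO the level was lower in STING cells than in MAVS cells for all 7 genes, where 2.15% of tested genes were lower. TRIM14 differed most, with 49.9 and 50.7 CPM in the STING DMSO libraries against 119 and 109 CPM in the MAVS DMSO libraries (-1.18 ± 0.06, adjusted p = 1.1e-13). TRIM21 stood lower by 0.91 ± 0.11 on the log2 scale, TRIM22 by 0.87 ± 0.09, TRIM69 by 0.75 ± 0.08, TRIM34 by 0.71 ± 0.11 and TRIM5 by 0.65 ± 0.07, with adjusted p of 0.00019 or lower. TRIM38 differed least (-0.24 ± 0.07, adjusted p = 0.035), and its call was lost without any 1 of the 4 libraries (STING DMSO replicate 1 or 2, MAVS DMSO replicate 1 or 2), at -0.27 to -0.19 and adjusted p from 0.098 to 0.29.

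After MPS1i, 5 of the 7 genes remained lower in STING than in MAVS cells, against 5.83% of tested genes. TRIM22 stood at 90.3 and 89.4 CPM in STING cells and 178 and 171 CPM in MAVS cells (-0.96 ± 0.06, adjusted p = 7.3e-12), and TRIM5 at 105 and 105 against 142 and 143 CPM (-0.44 ± 0.05, adjusted p = 9.5e-07). TRIM34 (-0.35 ± 0.08), TRIM69 (-0.29 ± 0.07) and TRIM38 (-0.25 ± 0.05) passed with adjusted p from 0.0032 to 0.0051. All 3 lost the call without STING MPS1i replicate 2 (-0.31, -0.27 and -0.19, adjusted p = 0.085, 0.073 and 0.11), and TRIM34 and TRIM69 also without MAVS MPS1i replicate 1 (-0.31 and -0.28, adjusted p = 0.072 and 0.056). TRIM14 reached levels that did not pass as different, 235 and 246 CPM in STING cells against 257 and 252 CPM in MAVS cells (-0.08 ± 0.05, adjusted p = 0.36), while the DMSO libraries of these lines, harvested at the same time, were 2.27-fold apart. TRIM21 stood at -0.20 ± 0.07 (adjusted p = 0.065).

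Under DMSO, DKO cells stood lower than MAVS cells for all 7 genes (8.21% of tested genes did). TRIM14 differed most, with 46.6 and 41.7 CPM in DKO cells (-1.38 ± 0.06, adjusted p = 2e-15), and TRIM38 least (-0.33 ± 0.06, adjusted p = 0.00051). TRIM22 stood at -0.42 ± 0.08 (adjusted p = 0.00072), and at -0.27 (adjusted p = 0.095) without MAVS DMSO replicate 1. Against STING cells under DMSO, 2 genes stood higher in DKO cells (9.33% of tested genes did) and 1 lower (7.81% did). TRIM22 was higher by 0.45 ± 0.09 (adjusted p = 0.0011), from 9.53 and 9.20 CPM in STING cells to 12.7 and 12.9 CPM in DKO cells. TRIM5 was higher by 0.19 ± 0.07 (adjusted p = 0.045) and TRIM14 lower by 0.19 ± 0.06 on the log2 scale (adjusted p = 0.031). The TRIM5 call was also lost with DESeq2 size factors (adjusted p = 0.056), with no filter on low counts (0.065) and with the DESeq2 test (0.097). Both of these calls were lost in a fit on only the 2 groups (adjusted p = 0.24 and 0.12), and without STING DMSO replicate 1 (adjusted p = 0.27 and 0.11) or 2 (0.13 and 0.12). TRIM5 also lost its call without DKO DMSO replicate 1 (adjusted p = 0.18) and TRIM14 without DKO DMSO replicate 2 (-0.11, adjusted p = 0.29). The other 4 genes lay between -0.11 and 0.02.

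Set beside SCR, with no test, the lines fell on both sides of the control under DMSO. STING cells were lower for all 7 genes, from -0.82 ± 0.06 (TRIM14) to -0.14 ± 0.06 (TRIM38), where 50.9% of tested genes were lower by any amount. MAVS cells were higher for all 7, from 0.10 ± 0.06 (TRIM38) to 0.68 ± 0.08 (TRIM22), where 50% were higher. DKO cells were lower for 6 of the 7, from -1.01 ± 0.06 (TRIM14) to -0.24 ± 0.06 (TRIM38), where 50.1% were lower, and TRIM22 was the exception at 0.26 ± 0.08. TRIM14 under DMSO thus had 88.5 and 88.7 CPM in SCR, 50.3 ± 0.567 CPM in STING and 44.2 ± 3.44 CPM in DKO cells. After MPS1i the 3 lines were below SCR for all 7 genes, with TRIM14 at -0.26 ± 0.05 in STING and -0.17 ± 0.05 in MAVS cells, TRIM22 at -2.13 ± 0.06 and -1.17 ± 0.05, and DKO cells between -4.55 ± 0.07 (TRIM22) and -2.64 ± 0.08 (TRIM69). Lower by any amount after MPS1i were 50.3% of tested genes in STING, 49.8% in MAVS and 49.9% in DKO cells. At least 2-fold lower were 3 of the 7 in STING cells (TRIM5, TRIM22 and TRIM38, against 5.19% of tested genes), TRIM22 alone in MAVS cells (2.47%) and all 7 in DKO cells (7.68%). A choice of genes on high SCR MPS1i levels favours lower levels in the other lines, so nothing is read from these counts.

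On the log2 scale, as differences from the SCR change, the STING change ranged from -1.94 ± 0.11 (TRIM22) to 0.56 ± 0.08 (TRIM14). TRIM14 was the 1 gene of the 7 whose log2 change in STING cells was above that in SCR cells. In STING cells it started from a lower DMSO level, going from 50.3 to 240 CPM against 88.6 to 287 CPM in SCR cells. The MAVS change ranged from -1.85 ± 0.10 (TRIM22) to -0.51 ± 0.13 (TRIM34), and the DKO change from -4.81 ± 0.11 (TRIM22) to -1.69 ± 0.08 (TRIM14). The change was at least 2-fold smaller than in SCR cells for 2 of the 7 in STING cells (TRIM22 and TRIM38, against 7.96% of tested genes), 3 in MAVS cells (those and TRIM5, 4.52%) and 7 in DKO cells (8.91%). These comparisons share the SCR libraries, whose change is taken to have chosen the genes, so nothing is read from these counts.

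**Figure D3:**
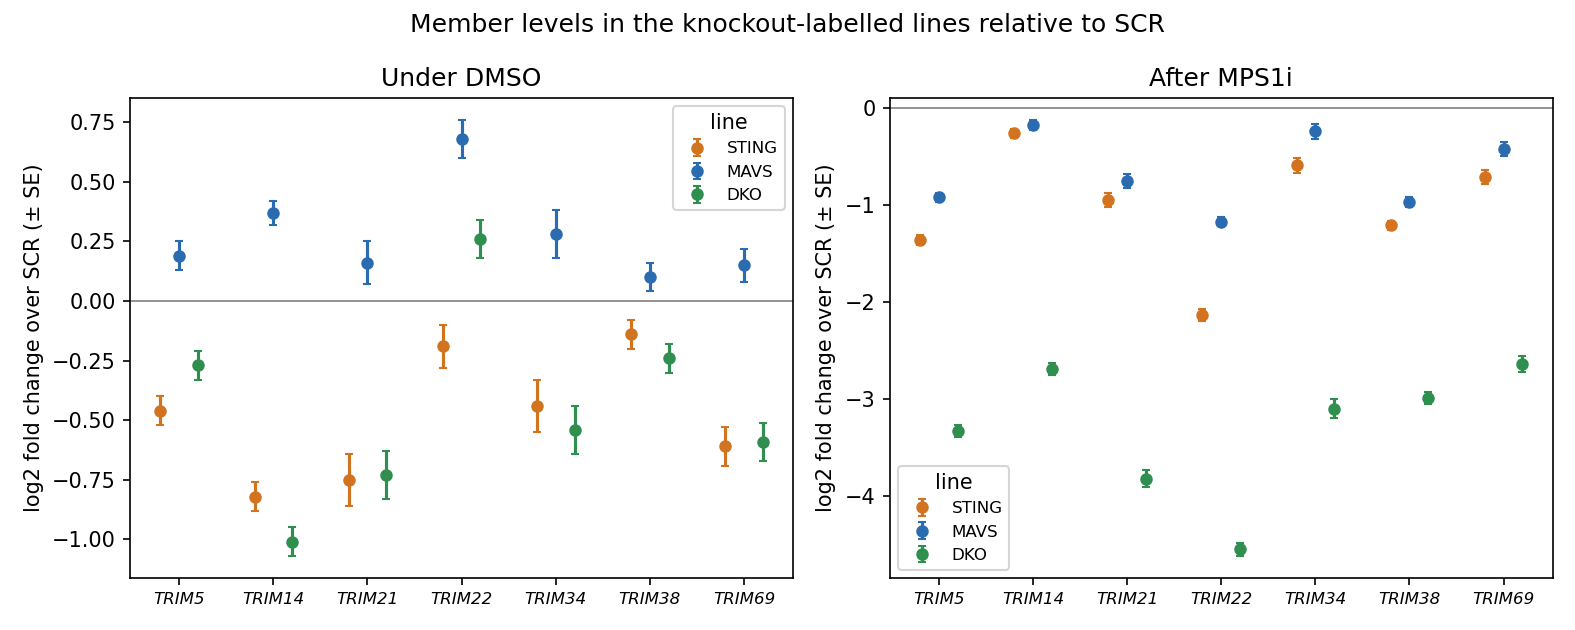
Log2 fold change of each gene in STING, MAVS and DKO cells over SCR cells, under DMSO (left) and after MPS1i (right); bars are ± 1 standard error and the axes differ in range. Under DMSO the MAVS points lie above 0 and the STING points below it, and after MPS1i all points lie below 0, with the DKO points lowest and the TRIM14 points of STING and MAVS nearest to 0 at -0.26 and -0.17.

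Across the 8 groups, the same 3 led for each gene: SCR MPS1i, then MAVS MPS1i, then STING MPS1i, with no overlap of libraries between neighbours among the 3. The lower of each pair lay below without overlap for 28.5% of tested genes between SCR and MAVS and for 28% between MAVS and STING cells. These shares are for single pairs and not for the order of all 3. The SCR MPS1i levels are taken to have chosen the genes, so nothing is read from their lead. MAVS DMSO came next for all 7 genes, overlapping SCR DMSO for TRIM21 and DKO MPS1i for TRIM22. The lowest group was STING DMSO for TRIM5, TRIM21 and TRIM22, DKO DMSO for TRIM14 and TRIM38, and DKO MPS1i for TRIM34 and TRIM69. The pair of lowest groups overlapped for TRIM14, TRIM21 and TRIM38.

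The genes whose log2 CPM ran most like each member over the 16 libraries were sought among 14106 protein-coding genes. They were NLRC5, which switches on MHC class I (Pearson r = 0.9979), the death ligand gene TNFSF10 (0.9975) and APOL1 (0.9969) for TRIM5, and TNFSF10 (0.9949), NLRC5 (0.9944) and APOL1 (0.9934) for TRIM38. For TRIM22 they were HLA-E (0.994), APOL1 (0.9936) and MYD88 (0.9934). For TRIM14 they included EIF2AK2, which encodes the RNA-activated kinase PKR (0.9961), and DTX3L (0.9957), and for TRIM21 ZNFX1 (0.996), SAMD9 (0.9955) and STAT2 (0.9954). TRIM34 and TRIM69 shared PARP14 (0.993 and 0.9914) and SAMHD1 (0.9915 and 0.9914), with TRANK1 (0.9916) for TRIM34 and IFI35 (0.9927) for TRIM69. Among the members, r was highest between TRIM5 and TRIM38 (0.994) and lowest between TRIM14 and TRIM22 (0.89). These values describe 16 libraries in 8 groups that share treatments, and many interferon-stimulated genes have similar ones.

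Other TRIM genes were called in both directions. Of 43 other tested TRIM genes (PML, a TRIM protein by structure, included), 12 rose and 6 fell in STING cells (median 0.06), 11 rose and 9 fell in MAVS cells (median 0.14), and 3 rose and 5 fell in DKO cells (median 0.09). Over all tested genes, 15.5% rose and 13.9% fell in STING cells, 17.1% rose and 16.3% fell in MAVS cells, and 6.53% rose and 8.22% fell in DKO cells. Of a list of 19 with reported roles in innate immunity, 9 rose and 2 fell in STING, 7 rose and 3 fell in MAVS, and 3 rose and 1 fell in DKO cells (medians 0.24, 0.16 and 0.09), beside the same 15.5%, 17.1% and 6.53% of tested genes that rose. The rises included those of PML, which organizes nuclear bodies (2.03 ± 0.08 in STING, adjusted p = 3.1e-14, and 1.78 ± 0.08 in MAVS, adjusted p = 1.1e-13), of TRIM25, which ubiquitinates RIG-I (1.31 ± 0.04 in STING, adjusted p = 4.1e-18, and 0.61 ± 0.04 in MAVS, adjusted p = 1.8e-11), and of TRIM26 (0.91 ± 0.07, adjusted p = 2.1e-10, and 0.90 ± 0.07, adjusted p = 5.3e-11). TRIM31 rose in MAVS cells by 1.36 ± 0.17 and stood at 0.40 in STING cells (adjusted p = 0.086). TRIM56 rose by 0.67 ± 0.06 in STING and 0.55 ± 0.06 in MAVS cells. In DKO cells TRIM8 rose by 0.37 ± 0.06 (adjusted p = 4.2e-05), PML by 0.35 ± 0.09 (adjusted p = 0.0076) and TRIM13 by 0.24 ± 0.08 (adjusted p = 0.039), while TRIM25 fell by 0.21 ± 0.04 on the log2 scale (adjusted p = 0.0018).

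**Figure D4:**
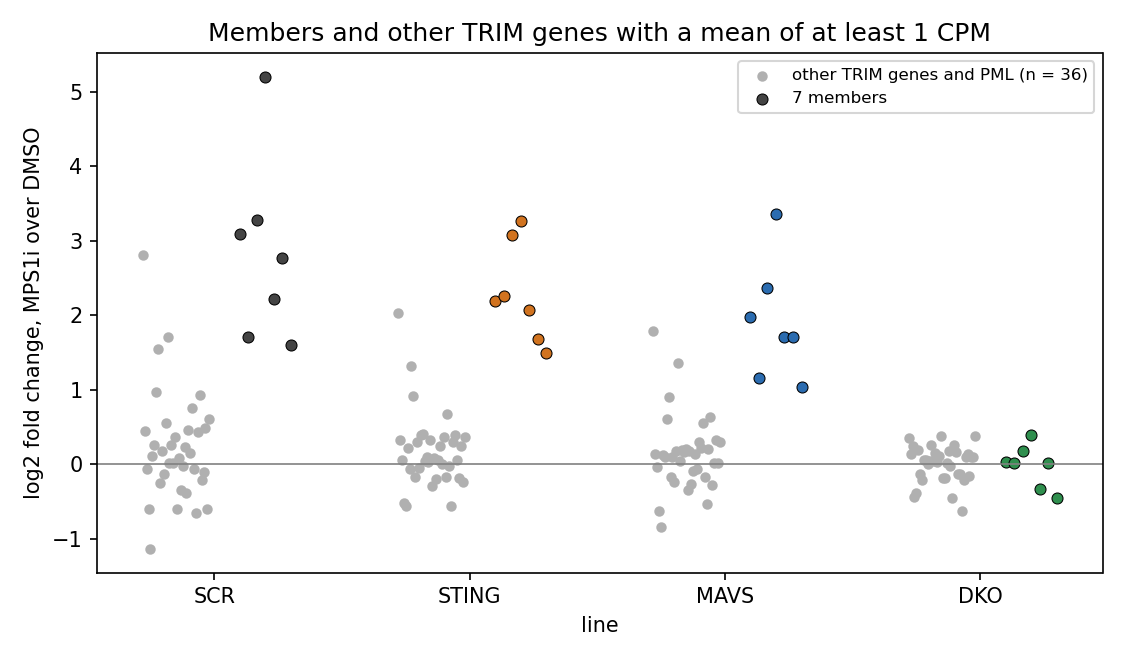
Log2 fold change after MPS1i over DMSO in each line for the 7 genes (coloured) and for the 36 other TRIM genes, PML included, with a mean of at least 1 CPM (grey); each point is 1 gene. The 7 genes lie between 1.49 and 3.26 in STING and between 1.03 and 3.35 in MAVS cells, where PML is the highest grey point at 2.03 and 1.78, and between -0.45 and 0.39 in DKO cells.

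Of 18 genes for partners of the member proteins, 4 rose and 1 fell in STING cells (median 0.04), 4 rose and 3 fell in MAVS cells (median 0.01), and 1 rose and 1 fell in DKO cells (median -0.01). Over all tested genes 15.5% rose and 13.9% fell in STING, 17.1% and 16.3% in MAVS, and 6.53% and 8.22% in DKO cells, so nothing particular to the partners is read from these counts. TICAM1, an adaptor that TRIM38 is reported to restrain, rose by 1.03 ± 0.13 in STING (adjusted p = 3e-06) and 0.95 ± 0.12 in MAVS cells (adjusted p = 2.5e-06), and CGAS, the DNA sensor that TRIM14 stabilizes, by 0.35 ± 0.09 (adjusted p = 0.0028) and 0.63 ± 0.08 (adjusted p = 1.4e-06). In DKO cells TICAM1 (0.18 ± 0.13, adjusted p = 0.42) and CGAS (0.11 ± 0.08, adjusted p = 0.45) did not pass. UBE2N, a ubiquitin-conjugating enzyme that works with TRIM5, rose by 0.29 ± 0.06 in MAVS (adjusted p = 0.00064) and 0.20 ± 0.06 in DKO cells (adjusted p = 0.029). It did not pass in STING cells (0.10 ± 0.06, adjusted p = 0.27). The MAVS transcript fell on the log2 scale by 0.16 ± 0.05 in STING (adjusted p = 0.008), 0.37 ± 0.05 in MAVS (adjusted p = 4e-07) and 0.19 ± 0.05 in DKO cells (adjusted p = 0.0052). Of 15 interferon receptor and signalling genes, 9 rose in STING cells (median 0.54), 10 in MAVS cells (median 0.66) and 3 in DKO cells, where 1 fell (median 0.07), beside 15.5%, 17.1% and 6.53% of tested genes that rose. STAT2 rose by 2.20 ± 0.05 in STING and 1.67 ± 0.05 in MAVS cells. The receptor genes IFNAR1, IFNAR2, IFNLR1 and IL10RB and the kinase genes JAK1 and TYK2 did not pass in STING cells (adjusted p from 0.081 to 0.95). Of these, IFNLR1 alone passed in MAVS cells (1.00 ± 0.23, adjusted p = 0.0012). In DKO cells IRF9 rose by 0.49 ± 0.09 (adjusted p = 0.00023), IRF1 by 0.36 ± 0.08 (adjusted p = 0.0031) and IRF7 by 0.77 ± 0.19 (adjusted p = 0.007), and the kinase gene JAK1 fell by 0.13 on the log2 scale (adjusted p = 0.04).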

How the data were processed

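RNA-seq counts of 16 libraries were used as deposited. The submitters' processing notes name STAR, featureCounts and GRCh38, besides the trimming tools cutadapt, Trim Galore and Trimmomatic; versions, strand setting and handling of shared reads are not given in the sources used here. The deposited length column holds gene spans in bases, not exon lengths, so exon lengths came from GENCODE 29. Genes were kept by filterByExpr (minimum count 10, minimum total 15). edgeR 4.0.16 in R 4.3.3 was run with TMM scaling and its quasi-likelihood test on 1 mean per group (8 residual degrees of freedom), with calls at adjusted p below 0.05. Standard errors are the absolute log2 fold change over the square root of F. The code was tested on simulated data. The members and all gene lists were chosen with earlier results of these data known. Named genes are the 7 members, the 3 genes most correlated with each (log2 CPM, prior count 2), the 3 largest called rises and falls among other TRIM genes averaging 1 CPM or more, and at most 4 per list, by adjusted p. Same-numbered replicates were not paired: over 28 pairs of groups, their differences correlated between -0.05 and 0.09. Some genes that this rule or the lists name are not reported here.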

Additional observations from a re-analysis of the deposited data

Results flagged for a closer look

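The change after MPS1i differed between lines by a direct test (the interaction term of edgeR's fit) in 17 cases. In STING cells it was larger than in MAVS cells for TRIM14 (1.10), TRIM21 (0.71) and TRIM69 (0.46), all on the log2 scale and from lower DMSO levels in STING cells. The difference of DKO minus STING cells was -2.16 for TRIM5, -2.25 for TRIM14, -2.89 for TRIM21, -2.87 for TRIM22, -2.40 for TRIM34, -1.67 for TRIM38 and -1.95 for TRIM69. DKO minus MAVS cells gave -1.95 for TRIM5, -1.15 for TRIM14, -2.17 for TRIM21, -2.96 for TRIM22, -2.05 for TRIM34, -1.69 for TRIM38 and -1.48 for TRIM69. TRIM14 is thus the gene whose change in MAVS cells lay nearest to that in DKO cells, while TRIM38 is that gene for STING cells. Groups of 2 libraries were too small for a search for single outlying libraries.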

How the results depend on the processing

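No member changed direction in a called comparison under another normalization (DESeq2 size factors), no filter, DESeq2's test, a fit on only the groups compared, the replicate number as a block, or with 1 library left out. With the replicate block, the counts of members called were the same as without it, among them 7 in STING, 7 in MAVS and 2 in DKO cells for the treatment effect. For DKO minus STING cells under DMSO, 1 member instead of 3 was called in a fit on only those groups, and 1 to 2 with 1 library left out. TRIM5 in that comparison also lost its call with DESeq2 size factors (adjusted p = 0.056), no filter (0.065) and DESeq2's test (0.097). With 1 library left out, 2 to 5 instead of 5 were called for STING minus MAVS cells after MPS1i, and 1 to 2 instead of 2 for the effect in DKO cells. In the remaining comparisons the count of members called stayed within 1.5 times.

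Counts over all tested genes moved more. The lowest with 1 library left out were 3364 against 5269 for the effect in STING cells and 978 against 1926 for STING minus MAVS after MPS1i (both without STING MPS1i replicate 2). Without STING DMSO replicate 2 they were 394 against 831 for STING minus MAVS under DMSO, 1702 against 3077 for DKO minus STING under DMSO and 369 against 700 for the difference of effects STING minus MAVS. Without DKO MPS1i replicate 1 they were 1433 against 2648 for the effect in DKO cells, 1473 against 2537 for DKO minus STING after MPS1i and 535 against 848 for the difference of effects DKO minus STING, and without MAVS DMSO replicate 1 they were 1761 against 2897 for DKO minus MAVS under DMSO. A fit on only the groups compared gave 1629 for the effect in DKO cells, 1983 and 1469 for DKO minus STING and minus MAVS under DMSO, and 1141 for the difference of effects STING minus MAVS. Some counts rose instead with 1 library left out, such as that for the effect in DKO cells. The fit assumes that a lone library varies like the other groups. Between the 2 libraries of a group, the mean chi-squared value per gene was largest in DKO DMSO, at 9.44. It ran from 2.8 to 6.09 in the other groups. The shorter core (GAAA, any 2 bases, GAA) stood in the same number of members (5), in 5 of their 7 windows, and in 8.11% of all windows.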

Other observations

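TRIM59, TRIM16 and TRIM2 each fell after MPS1i in STING, MAVS and DKO cells. TRIM59 fell by 0.57 ± 0.10 on the log2 scale in STING (adjusted p = 7.1e-05), 0.54 ± 0.09 in MAVS (adjusted p = 4e-05) and 0.63 ± 0.09 in DKO cells (adjusted p = 2.1e-05). TRIM16 fell by 0.52 ± 0.05, 0.63 ± 0.05 and 0.44 ± 0.05 in the same order, and went from 217 ± 2.23 to 160.5 ± 0.871 CPM in DKO cells. TRIM2 fell by 0.56 ± 0.06, 0.84 ± 0.06 and 0.39 ± 0.06. These 3 genes had the largest falls past the threshold among other TRIM genes that averaged 1 CPM or more in each of the 3 lines, and in SCR cells, with no test, they stood at -0.66, -0.60 and -1.14. Of these genes TRIM16 and TRIM2 also held the ISRE core in their RefSeq promoter windows, as did TRIM26 and TRIM44.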
